A study of Mus musculus with 4 samples.

Results

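Hypoxia-inducible genes are transcribed when oxygen is short, and 10 of them that act outside glycolysis are described here in cultured mouse female germline stem cells (FGSCs): *Egln1*, *Egln3*, *Bnip3*, *Pdk1*, *Vegfa*, *Adm*, *Ddit4*, *P4ha1*, *Ndrg1* and *Ankrd37*. They were chosen by name as known targets of the hypoxia-inducible factors (HIFs), with earlier results of these data known, and are 10 of the 53465 genes with a deposited value. The FGSCs, labelled as an ovarian line of germ stem cells, carried a lentiviral control shRNA (shNC) or a lentiviral shRNA against *Nat10* (shNAT10), the writer of N4-acetylcytidine in RNA, and both groups passed through infection and antibiotic selection. Long RNA-seq was made from 2 libraries per group. The study calls the libraries of a group biological replicates. Whether they came from separately infected cultures is not given in the sources used here, so a p-value measures the spread between these libraries. Oxygen, cell density and the day of harvest were not among the deposited values.

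HIF is a pair of proteins, an oxygen-labile alpha subunit such as HIF1A and its stable partner ARNT. When oxygen is ample, prolyl hydroxylases of the EGLN family modify the alpha subunit, the VHL ubiquitin ligase recognises the modified protein, and it is degraded. When oxygen falls, the alpha subunit accumulates and the pair binds hypoxia response elements, whose core is A or G followed by CGTG, near genes of oxygen sensing, mitochondrial turnover, blood vessel growth, matrix formation and glycolysis, and dense cultures are known to lower the oxygen around cells by using it.

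The RefSeq promoter table (build GRCm38.p6) held 9 of the 10 genes, not *Ndrg1*. In the window of 300 bases that runs from 250 bases before a start site to 50 after it, ACGTG or GCGTG was searched on both strands. A CACGTG, which reads the same on both strands, counts as a match on each. Over every start site in the table, the 9 genes had 11 windows, of which 9 held at least 1 match (81.8%), against 43.8% of all 32851 promoters in the table. At least 2 matches stood in 8 of the 11 (72.7%), against 20.6% of all promoters. *Vegfa* and *Pdk1* each had a second start site inside the gene. *Vegfa* had 0 matches in the window nearest to its gene start and 2 in the other, while *Pdk1* had 2 in the nearest and 0 in the other. *Bnip3* alone held the whole CACGTG. A match describes letters, not a bound site. Upstream sequence outside annotated exons is printed for the gene with the largest difference between the groups, for the most abundant gene and for the 2 genes that did not pass the threshold, 5′ to 3′ on the strand of the gene, with the matches in capitals. The *Ankrd37* run lies at chr8:45999868-46000100 on the minus strand, with matches that begin 241, 155 and 152 bases before the start site, the last 2 overlapping. It lies directly before the 5′ end of the protein-coding transcript, and, because an annotated noncoding transcript of the gene begins farther upstream, it lies inside the span given for *Ankrd37* below, in an intron of that longer transcript. The *Bnip3* run lies at chr7:138909520-138909756 on the minus strand and holds 5 matches, which begin 117, 108, 107, 99 and 35 bases before the start site. The *P4ha1* run lies at chr10:59323046-59323295 on the plus strand with 3 matches, and the *Pdk1* run at chr2:71872974-71873223 on the plus strand with 1 match.
Ankrd37: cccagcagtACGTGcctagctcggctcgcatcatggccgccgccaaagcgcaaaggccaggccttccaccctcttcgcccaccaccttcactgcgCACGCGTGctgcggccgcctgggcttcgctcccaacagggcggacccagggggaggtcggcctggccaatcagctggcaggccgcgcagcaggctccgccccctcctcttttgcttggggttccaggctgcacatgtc
Bnip3: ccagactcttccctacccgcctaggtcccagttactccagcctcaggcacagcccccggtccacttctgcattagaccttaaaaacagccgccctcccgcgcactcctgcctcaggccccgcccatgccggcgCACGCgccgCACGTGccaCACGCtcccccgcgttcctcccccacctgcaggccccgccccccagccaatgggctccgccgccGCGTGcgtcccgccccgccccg
P4ha1: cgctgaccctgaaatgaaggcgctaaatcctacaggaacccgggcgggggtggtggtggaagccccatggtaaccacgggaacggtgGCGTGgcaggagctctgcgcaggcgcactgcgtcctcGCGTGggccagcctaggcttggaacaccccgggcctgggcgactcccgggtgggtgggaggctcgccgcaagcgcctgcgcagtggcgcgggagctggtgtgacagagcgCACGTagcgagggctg
Pdk1: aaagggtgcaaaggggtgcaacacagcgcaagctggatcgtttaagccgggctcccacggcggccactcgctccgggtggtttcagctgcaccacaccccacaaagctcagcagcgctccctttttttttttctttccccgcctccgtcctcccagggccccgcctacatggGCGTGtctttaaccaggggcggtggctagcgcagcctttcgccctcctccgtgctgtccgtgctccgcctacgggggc
The number of matches and the size of the difference did not go in 1 order. *P4ha1* had 3 matches and did not pass the threshold, whereas *Egln3* had 1 and passed it.

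Each library held between 11054807 and 14898070 recovered fragments on genes, and the deposited FPKM (fragments per kilobase of exon, scaled by the depth of the library) already held a median-ratio scaling, so differences are relative to the median gene. The total FPKM of all genes differed by group, at 2.09e+06 and 1.53e+06 in shNC and 1.18e+06 and 1.20e+06 in shNAT10. That of protein-coding genes ran from 200003 in shNC-1 to 210844 in shNC-2, with both shNAT10 libraries between. *Nat10* itself had an FPKM of 7.79 and 5.42 in shNC and 2.95 and 3.04 in shNAT10 and was called lower, with a log2 fold change of -1.09 (SE 0.21, adjusted p = 0.123). The germline label was checked against 10 markers, of which *Dazl*, *Pou5f1*, *Dppa3* and *Stra8* were listed at 0 in every library and *Ddx4*, the germ cell helicase, was above 0 in shNAT10-1 alone (0.0529). The paper characterised its FGSCs by RT-PCR and immunofluorescence of germline markers, DDX4 and OCT4 among them. Its text also reports more STRA8 and SYCP3 after *Nat10* knockdown. *Sycp3* had 0.337 and 0.666 in shNC and 0.756 and 0.774 in shNAT10 and was not called (log2 fold change 0.58, adjusted p = 0.529). The summed FPKM of the 10 markers was 34.4 and 44.2 in shNC and 42.5 and 50.1 in shNAT10, nearly all of it *Kit* and *Ifitm3*, which lay on opposite sides. *Kit*, a receptor of germ cells and also of mast cells, had 24.5 and 21.2 in shNC and 14.5 and 15.6 in shNAT10 and was the single germline marker called by limma (log2 fold change -0.60, adjusted p = 0.123, and 2.92e-04 with limma-voom). *Ifitm3* had 9.29 and 22.2 in shNC and 27.1 and 33.6 in shNAT10 and was not called by limma (log2 fold change 1.06, adjusted p = 0.326, and 0.00363 with limma-voom). Of 17 leukocyte and mast cell markers, 11 passed the filter. By the rule given below, 5 were lower (45.5%) and 1 was higher (9.09%) in shNAT10, against 7.83% and 8.41% of all tested genes. The sum was 780 and 850 in shNC and 698 and 717 in shNAT10. Lower were *Fcer1g* (log2 fold change -1.01, adjusted p = 0.0489), *Laptm5* (-0.64), *Cd53* (-0.58), *Lcp1* (-0.37) and *Gata2* (-0.33), and higher was *Ms4a2* (2.12, adjusted p = 0.0842), a subunit of the IgE receptor as *Fcer1g* is. Among those not called, the pan-leukocyte gene *Ptprc* stayed between 15.3 and 15.5 and the mast cell protease gene *Cpa3* between 245 and 272, while *Fcer1a* and *Tpsb2* were listed at 0. *Foxl2* and *Fshr* of the granulosa cell list and *Lum* of the fibroblast list were also listed at 0 in all 4 libraries. The granulosa cell sum was 3.72 and 3.69 in shNC and 4.24 and 4.41 in shNAT10, with no call by limma among 5 tested genes. The fibroblast sum was 59.0 and 52.4 in shNC and 68.8 and 59.5 in shNAT10. Among 7 tested genes *Col3a1* (0.98), *Pdgfra* (0.83) and *Thy1* (0.76) were higher (42.9%) and *Fn1* (-0.37) was lower (14.3%). The part of these cell type markers in the results below was not tested. In bulk RNA, fewer cells of a type and less RNA per cell cannot be told apart.

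The comparison of shNAT10 with shNC asks whether the hypoxia-inducible genes differed when *Nat10* was depleted. All 10 genes were lower in shNAT10 by their group means. Of the 10, 8 passed the threshold, a fold change over 1.2 with an unadjusted limma p of at most 0.05 on log2(FPKM + 0.1), and 0 were higher. Among all 20116 tested genes 7.83% were called lower and 8.41% higher by the same rule. The median log2 fold change was -0.65 for the 10 genes and 0.01 for all tested genes. For 9 of the 10, every shNAT10 value was under every shNC value, a pattern found in 24.1% of all tested genes. After Benjamini-Hochberg adjustment over all genes limma kept 0 of the 10 below 0.05, where 0.437% of all genes were kept. With limma-voom on recovered fragments 6 of the 10 were lower at an adjusted p under 0.05, against 3.65% of all genes. With 2 against 2 libraries an exact permutation test cannot go below p = 0.333, the value reached by each of the 9 genes whose groups were apart. The 4 largest differences were those of *Ankrd37*, *Adm*, *Ndrg1* and *Bnip3*, each over 2-fold on this scale. With a pseudocount of 1 the log2 fold change of *Adm* was -0.55, under those of *Egln3* (-0.62) and *Ddit4* (-0.61) in size. Gene coordinates below are those of GENCODE M21 on GRCm38.

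**Figure D1:**
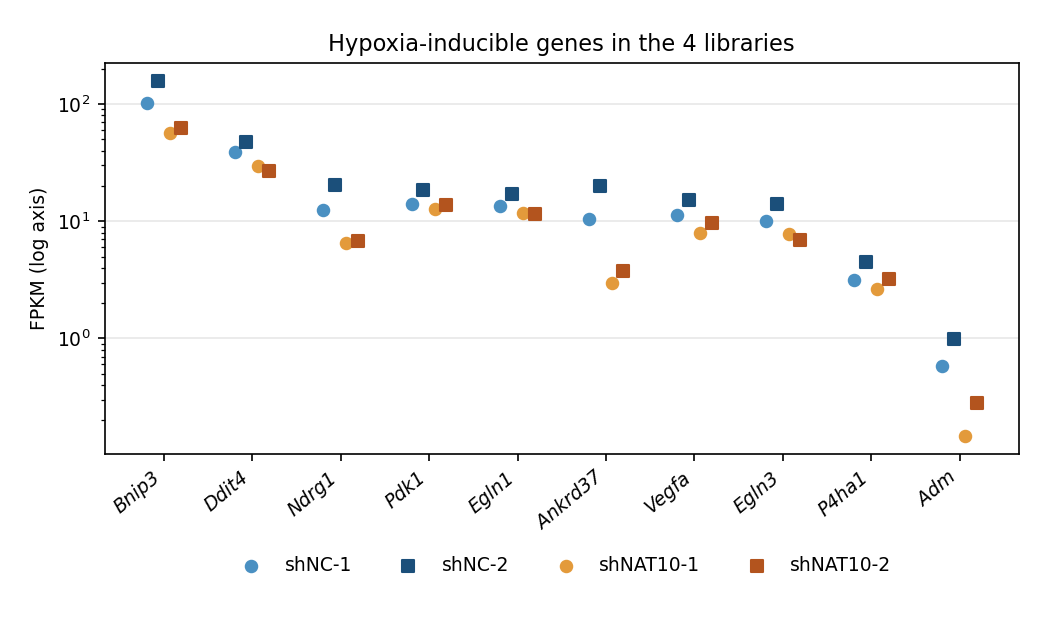
FPKM (log axis) of each of the 10 hypoxia-inducible genes in the 4 libraries, 1 point per library, ordered by the mean in shNC. The shNC-2 point is the highest for all 10 genes, and the shNC-1 point is the second for all but *P4ha1*.

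*Egln1* and *Egln3* encode prolyl hydroxylases that mark HIF alpha subunits for destruction, and both are themselves HIF targets, which closes a feedback loop. *Egln1* (ENSMUSG00000031987, chr8:124908587-124949324) had an FPKM of 13.4 in shNC-1 and 17.0 in shNC-2, against 11.6 in shNAT10-1 and 11.5 in shNAT10-2. The groups did not overlap, and the shNAT10 libraries lay closer to each other than the shNC libraries did. The fall was 1.30-fold (log2 fold change -0.38, SE 0.14, adjusted p = 0.294), the smallest among the genes that passed. *Egln3* (ENSMUSG00000035105, chr12:54178981-54203860), the more strongly inducible of the family, had 10.04 and 14.1 in shNC and 7.81 and 6.96 in shNAT10. Its fall was 1.60-fold (log2 fold change -0.68, SE 0.19, adjusted p = 0.214). Their relative *Egln2*, which is not known as a hypoxia-induced gene, had 14.5 and 13.1 in shNC and 13.8 and 16.2 in shNAT10, overlapping groups with a log2 fold change of 0.11 (SE 0.13, adjusted p = 0.685). In shNC the FPKM ranges of the 3 relatives overlapped.

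*Bnip3* and *Pdk1* act on mitochondria. *Bnip3* (ENSMUSG00000078566, chr7:138890836-138909519), a receptor on the outer mitochondrial membrane that recruits the autophagy machinery, was the most abundant of the 10 in every library. It had an FPKM of 101.5 in shNC-1 and 157.8 in shNC-2, against 57.1 in shNAT10-1 and 62.3 in shNAT10-2. The lower shNC library still exceeded the higher shNAT10 library, and the fall was 2.12-fold (log2 fold change -1.08, SE 0.23, adjusted p = 0.142). Its paralogue *Bnip3l*, also a mitophagy receptor and a HIF target, had 36.9 and 50.03 in shNC and 33.3 and 33.5 in shNAT10 and did not pass the threshold (log2 fold change -0.36, SE 0.16, adjusted p = 0.366). *Pdk1* (ENSMUSG00000006494, chr2:71873224-71903858), a kinase that switches off pyruvate dehydrogenase and so keeps pyruvate out of the citric acid cycle, had 14.1 and 18.4 in shNC and 12.7 and 13.6 in shNAT10. Its groups were just apart and it did not pass (log2 fold change -0.28, SE 0.16, 95% interval -0.70 to 0.13, adjusted p = 0.451). Without shNC-1 the log2 fold change of *Pdk1* was -0.48. Limma-voom on all 4 libraries called *Pdk1* at an unadjusted p of 0.0253, where 9.34% of all genes were called lower. Of the other PDH kinases, *Pdk3* had 9.01 and 8.95 in shNC and 7.84 and 7.998 in shNAT10 (log2 fold change -0.18, adjusted p = 0.444), *Pdk2* did not exceed 0.186 in any library, and *Pdk4* was listed at 0.

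Among the 11 tested mitophagy genes and *Bnip3* partners 2 were lower (18.2%, against 7.83% of all tested genes) and 0 were higher by limma. Limma-voom after adjustment gave the same counts. *Pink1*, the kinase that flags damaged mitochondria, had 22.6 and 28.2 in shNC and 11.6 and 13.3 in shNAT10 (log2 fold change -1.02, SE 0.15, adjusted p = 0.0860). *Sqstm1*, an autophagy adaptor, had 249 and 246 in shNC and 144 and 145 in shNAT10 (log2 fold change -0.78, SE 0.08, adjusted p = 0.0513). Among 9 tested PDH kinases, phosphatases and subunits, the subunit gene *Pdhx* alone was called, with 9.94 and 9.24 in shNC and 11.6 and 12.9 in shNAT10, a rise of 0.35 on the log2 scale (SE 0.11, adjusted p = 0.239). This 1 call in 9 (11.1%) is near the 8.41% of all tested genes called higher.

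*Vegfa* and *Adm* encode secreted signals of blood vessels. *Vegfa* (ENSMUSG00000023951, chr17:46016993-46032369), the main growth factor of endothelial cells, had an FPKM of 11.2 in shNC-1 and 15.1 in shNC-2, against 7.96 in shNAT10-1 and 9.61 in shNAT10-2. Every shNAT10 value was below every shNC value, and the fall was 1.48-fold (log2 fold change -0.57, SE 0.19, adjusted p = 0.260). *Adm* (ENSMUSG00000030790, chr7:110627661-110629820), the peptide hormone adrenomedullin, was the least abundant of the 10, with 0.578 and 0.989 in shNC and 0.148 and 0.282 in shNAT10. These values rest on 11 and 19 fragments in shNC and on 3 and 7 in shNAT10, and 3 fragments is the floor used here. The ratio of the pooled fragments, scaled by the divisors of the libraries, was 0.282, with an exact 95% interval of 0.123 to 0.593 that covers counting error only. On the log2 scale *Adm* fell by 1.48 (SE 0.45, adjusted p = 0.232), a size set by the pseudocount, since it was -0.55 with a pseudocount of 1 and -1.84 with 0.01. The call of *Adm* was lost when any of the 4 libraries was left out.

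The main receptors of VEGF were scarce in these libraries. Their genes *Flt1*, *Kdr* and *Flt4* did not exceed 0.0361 in any library, and 9 of 15 receptor and family genes passed the filter, with a median log2 fold change of 0.40. Of the 9, 5 had both shNAT10 values above both shNC values and 1 the reverse. Among all 20116 tested genes 4814 had the first pattern and 4840 the reverse. Limma called 0 of the 9 higher. At the same threshold limma-voom called 3 higher, the VEGF coreceptor genes *Nrp1* and *Nrp2* and the atypical receptor gene *Ackr3*, against 10.1% of all genes, and 0 after adjustment. Their log2 fold changes in limma were 0.79 for *Nrp1* (adjusted p = 0.395), 0.40 for *Nrp2* (adjusted p = 0.425) and 0.74 for *Ackr3* (adjusted p = 0.422). Limma called 1 of the 9 lower (11.1%, against 7.83% of all tested genes). It was *Vegfb*, another VEGF family ligand, with 2.33 and 2.83 in shNC and 1.19 and 1.26 in shNAT10 (log2 fold change -1.01, SE 0.19, adjusted p = 0.121). *Vegfc*, the ligand of lymphatic vessels, had 1.53 and 1.10 in shNC and 2.05 and 1.60 in shNAT10 and was not called (log2 fold change 0.45, adjusted p = 0.461). *Vegfd* and *Adm2* had overlapping groups, with log2 fold changes of -0.28 and -0.83, and *Pgf* did not exceed 0.0290. *Calcrl*, the adrenomedullin receptor, had 5.91 and 5.81 in shNC and 7.44 and 6.67 in shNAT10 (log2 fold change 0.26, adjusted p = 0.362).

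*Ddit4* (ENSMUSG00000020108, chr10:59949669-59951834) encodes REDD1, a stress-induced brake on mTORC1, and is known to answer to ATF4 and to other stress pathways as well as to HIF. It had an FPKM of 39.003 in shNC-1 and 47.7 in shNC-2, against 29.4 in shNAT10-1 and 26.6 in shNAT10-2. The groups were well apart and the shNC libraries differed least for this gene among the 10, by 0.29 on the log2 scale. The fall was 1.54-fold (log2 fold change -0.62, SE 0.13, adjusted p = 0.142). Its relative *Ddit4l* went the other way, from 0.204 and 0.0289 in shNC to 0.519 and 0.716 in shNAT10 (log2 fold change 1.84, SE 0.59, adjusted p = 0.245). It rests on 7 and 1 fragments in shNC and 19 and 32 in shNAT10, a scaled ratio of 5.40 with an exact 95% interval of 2.54 to 13.2 for counting error only. The 1 fragment in shNC-2 is under the floor of 3. With 1 library left out the log2 fold change of *Ddit4l* ran from 1.22 to 2.46, and limma-voom gave 2.70. Among 14 tested genes of mTORC1 and its brakes 3 were higher (21.4%) and 1 was lower (7.14%), against 8.41% and 7.83% of all tested genes. Besides *Ddit4l*, *Sesn3* (log2 fold change 0.56, adjusted p = 0.261), a sestrin that restrains mTORC1, and *Txnip* (0.48, adjusted p = 0.111), a REDD1 partner and glucose uptake inhibitor, were higher. *Sesn2*, a sestrin and ATF4 target, was lower (-0.45, adjusted p = 0.267). *Mtor* had 2.40 and 2.46 in shNC and 2.40 and 2.48 in shNAT10.

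*P4ha1* (ENSMUSG00000019916, chr10:59323296-59373304) encodes the catalytic subunit of the collagen prolyl 4-hydroxylase. Its FPKM was 3.15 in shNC-1 and 4.50 in shNC-2, against 2.65 in shNAT10-1 and 3.22 in shNAT10-2. This was the single gene of the 10 whose groups overlapped, because shNC-1 lay below shNAT10-2. The log2 fold change was -0.35 (SE 0.23, 95% interval -0.95 to 0.25, adjusted p = 0.519), and an exact permutation test gave p = 0.667. *P4hb*, the other subunit of the enzyme, had 216 and 273 in shNC and 153 and 161 in shNAT10 and passed (log2 fold change -0.63, SE 0.14, adjusted p = 0.150). *Plod2*, a collagen lysyl hydroxylase, had 28.3 and 40.9 in shNC and 21.9 and 23.2 in shNAT10 (log2 fold change -0.59, SE 0.19, adjusted p = 0.251). *P4ha2* (-0.39, adjusted p = 0.582) and the scarce *P4ha3* (-0.52, adjusted p = 0.756) overlapped between groups. In all, 2 of the 7 tested collagen-modifying genes were lower (28.6%, against 7.83% of all tested genes).

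*Ndrg1* (ENSMUSG00000005125, chr15:66929318-66969640), a cytoplasmic protein induced by hypoxia and by iron loss, had an FPKM of 12.5 in shNC-1 and 20.3 in shNC-2, against 6.49 in shNAT10-1 and 6.84 in shNAT10-2. The shNAT10 libraries nearly coincided and both lay well below shNC-1, and the fall was 2.37-fold (log2 fold change -1.25, SE 0.25, adjusted p = 0.132). *Ndrg2* had 11.9 and 16.0 in shNC and 7.53 and 7.51 in shNAT10 and also fell (log2 fold change -0.87, SE 0.17, adjusted p = 0.129). *Ndrg3* (-0.18, adjusted p = 0.728) and *Ndrg4* (0.30, adjusted p = 0.446) were not called.

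*Ankrd37* (ENSMUSG00000050914, chr8:45996902-46005707), a small ankyrin repeat protein known mainly as a HIF target, had the largest difference. Its FPKM was 10.4 in shNC-1 and 19.98 in shNC-2, against 2.95 in shNAT10-1 and 3.73 in shNAT10-2, from 188, 365, 57 and 88 fragments. The lower shNC value was well above the higher shNAT10 value, although the shNC libraries differed by 0.94 on the log2 scale. The fall was 4.25-fold (log2 fold change -2.09, SE 0.34, adjusted p = 0.103 with limma and 2.11e-06 with limma-voom). Over the 4 libraries and among 12137 genes whose mean FPKM reached 1, the genes whose centred log2 levels lay nearest to those of *Ankrd37* were *Lrp2bp* (Euclidean distance 0.274), *Rn7s2* (0.352) and *Gm16439* (0.388). *Lrp2bp* shares exon bases with *Ankrd37*, and *Rn7s2* belongs to a family of near-identical RNA copies between which reads can be split, so its values are uncertain.

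**Figure D2:**
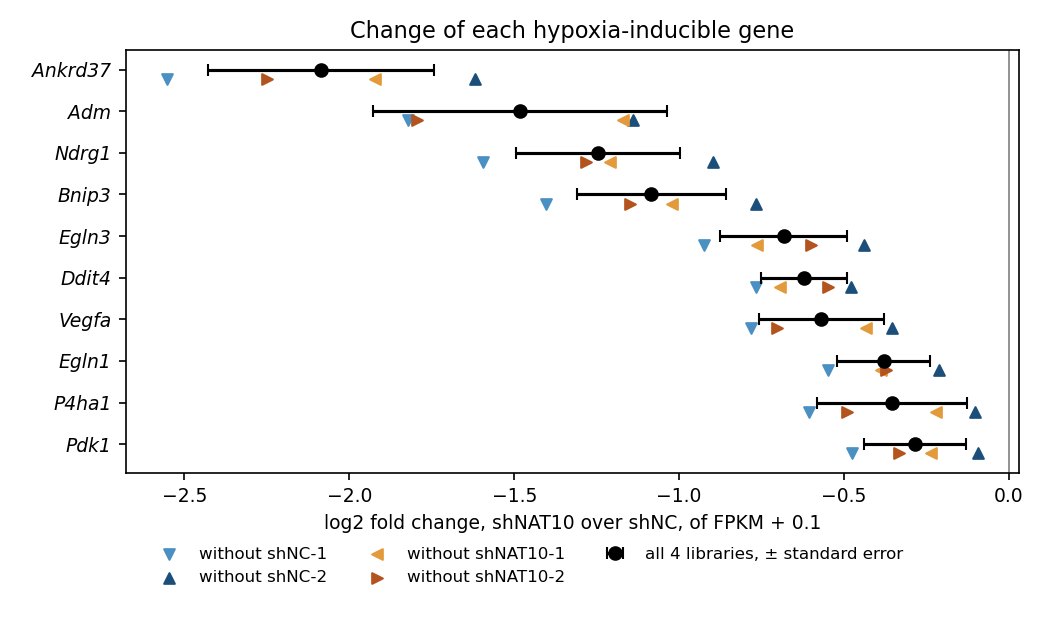
Log2 fold change of FPKM + 0.1, shNAT10 over shNC, for each of the 10 genes: black points with bars give the fit on all 4 libraries with its standard error, and triangles give the fit with 1 library left out. Every triangle lies below 0, the *Pdk1* fit without shNC-2 being nearest to it at -0.09.

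Some of the 10 genes lie across exons of genes on the opposite strand, and whether the counting used strand is not given in the sources used here, so their reads cannot be told apart. *Gm45507*, an antisense RNA, shares 504 of its 519 exon bases with *Bnip3* (22.3% of the *Bnip3* exons) and had 217 and 339 FPKM in shNC and 126 and 144 in shNAT10. *Gm17035* lies within *Ndrg1* exons over its 419 bases, with a log2 fold change of -1.15. *Gm2895* shares 137 exon bases with *Ndrg1* and differed by -1.34. *Lrp2bp* shares 349 exon bases with *Ankrd37* (22.7% of the *Ankrd37* exons) and differed by -2.16. *Ufsp2*, which shares 57 bases with *Ankrd37*, had 10.05 and 9.61 FPKM in shNC and 6.996 and 5.82 in shNAT10.

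Within shNC the 10 genes were also ordered alike. All 10 were higher in shNC-2 than in shNC-1, as were 47.4% of all tested genes, and the difference ran from 0.29 for *Ddit4* to 0.94 for *Ankrd37* on the log2 scale. Its median was 0.49 for the 10 genes and 0.00 for all genes. The summed FPKM of the 10 was 216 in shNC-1 and 316 in shNC-2, against 139 in shNAT10-1 and 145 in shNAT10-2. Within shNAT10 the median difference of shNAT10-2 from shNAT10-1 was 0.11. The lowest value of a gene was in shNAT10-1 for 7 genes and in shNAT10-2 for 3. *Nat10* ran against this order within shNC, with 7.79 in shNC-1 and 5.42 in shNC-2. The part of culture density in the gap between the shNC libraries was not tested, since it is not among the deposited values.

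The comparison therefore depended on which library stood for shNC. Without shNC-2 the median log2 fold change of the 10 was -0.46 and without shNC-1 it was -0.85. Without shNAT10-1 the median was -0.73 and without shNAT10-2 it was -0.65. In each of these fits the spread came from the complete pair of the other group, and the lone library was assumed to vary like it. The calls of the 10 changed with the library left out and are not counted here. In these 4 fits all 10 log2 fold changes stayed below 0.

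**Figure D3:**
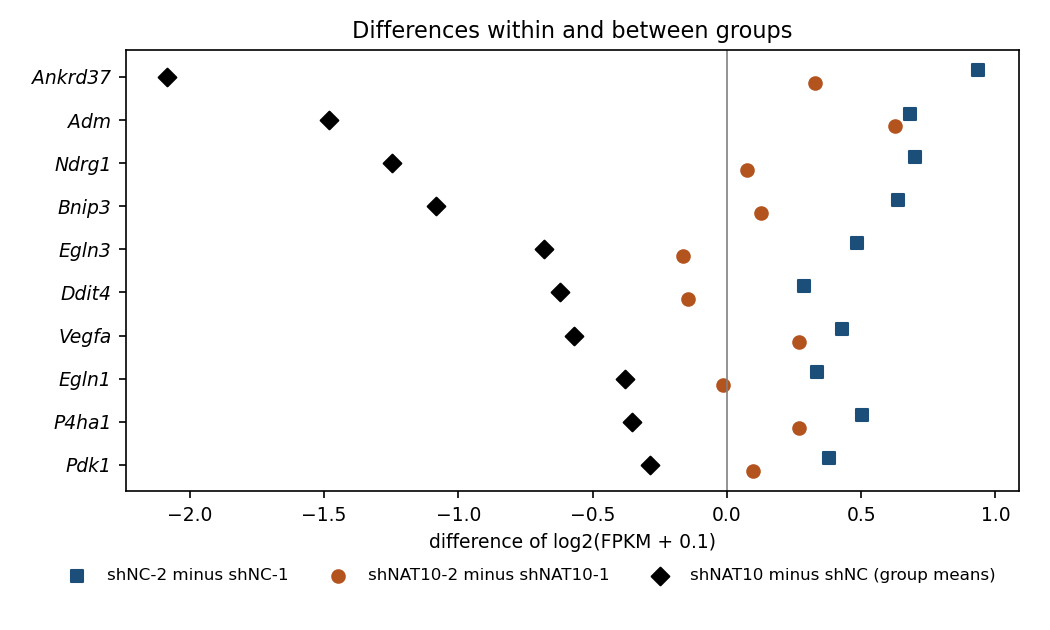
Differences of log2(FPKM + 0.1) for each of the 10 genes: squares show shNC-2 minus shNC-1, circles shNAT10-2 minus shNAT10-1 and diamonds the difference of group means. The squares reach from 0.29 to 0.94, all above 0, while the diamonds reach from -2.09 to -0.28.

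Levels per exon length ordered the 10 genes in a similar way in both groups. In shNC *Bnip3* and then *Ddit4* stood above the rest with ranges that did not touch, *Ndrg1*, *Pdk1*, *Egln1*, *Ankrd37*, *Vegfa* and *Egln3* followed with means between 12.1 and 16.4 and ranges that overlapped from neighbour to neighbour, and *P4ha1* and *Adm* came last. In shNAT10 *Ndrg1* and *Ankrd37* stood below *Egln3*, at means of 6.66 and 3.34, and the ranges of *Ankrd37* and *P4ha1* overlapped.

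Of the genes that make up the HIF pathway, without the 2 hydroxylases above, 17 of 19 passed the filter, and their median log2 fold change was -0.12. Of the 17, 1 was called higher and 1 lower (5.88% each), under the 8.41% and 7.83% of all tested genes. *Hif1a*, the oxygen-labile alpha subunit, was higher in shNAT10, with 44.5 and 40.6 in shNC and 54.7 and 50.1 in shNAT10 (log2 fold change 0.30, SE 0.10, adjusted p = 0.248). Both shNAT10 values exceeded both shNC values, so the mRNA of the factor was on the other side from those of the 10 targets. This call was lost whenever 1 library was left out, with values from 0.23 to 0.37. *Epas1*, the other main alpha subunit, did not exceed 0.0369 and *Hif3a* was listed at 0. *Arnt*, the stable partner, had 1.47 and 1.28 in shNC and 1.01 and 1.00 in shNAT10 and was not called by limma (log2 fold change -0.41, SE 0.20, adjusted p = 0.410). Limma-voom called *Arnt* lower at an unadjusted p of 0.0434 (adjusted p = 0.229), where 9.34% of all genes were called lower. *Arnt2* did not exceed 0.187.

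Of the genes that act on the turnover or activity of the alpha subunit, *Siah1a*, which encodes a ubiquitin ligase that degrades EGLN enzymes and is thereby known to spare the alpha subunit, was called lower, with 10.2 and 10.4 in shNC and 8.62 and 8.39 in shNAT10 (log2 fold change -0.27, SE 0.09, adjusted p = 0.270). The call of *Siah1a* was lost under most alternatives. *Vhl*, the recognition subunit of the HIF ubiquitin ligase, had 12.2 and 14.1 in shNC and 11.4 and 11.8 in shNAT10 (log2 fold change -0.18, adjusted p = 0.529). Its ligase partners were not called either, with log2 fold changes of -0.05 for *Cul2*, -0.12 for *Eloc*, -0.08 for *Elob* and -0.09 for *Rbx1*. *Hif1an*, the asparagine hydroxylase that blocks HIF coactivators, had 9.42 and 8.82 in shNC and 8.92 and 9.56 in shNAT10. The coactivators *Ep300* (-0.22) and *Crebbp* (-0.15), their competitor *Cited2* (0.16), the ligase *Siah2* (-0.15) and *Rack1* (-0.12), an adaptor of HIF1A turnover, were not called. *Hsp90ab1*, the HIF1A chaperone, met the p threshold but not the fold threshold (log2 fold change -0.26, adjusted p = 0.271).

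**Figure D4:**
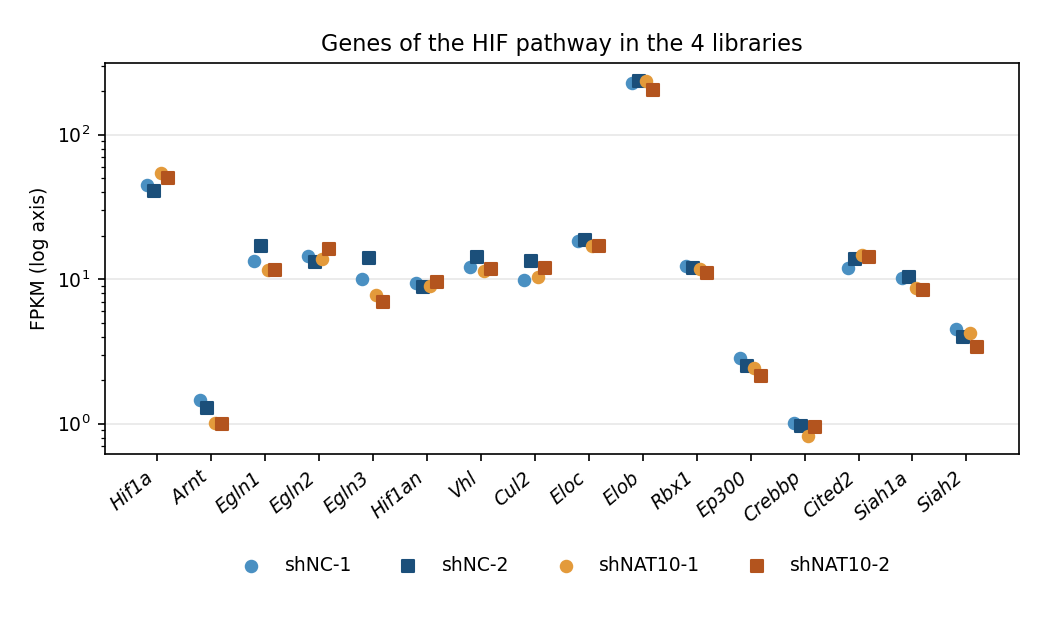
FPKM (log axis) of *Egln1*, *Egln3* and 14 genes of the HIF pathway in the 4 libraries, 1 point per library. *Hif1a* is higher in both shNAT10 libraries than in both shNC libraries, and *Egln1* and *Egln3* are lower.

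Other HIF targets were compared from a list of 44 genes outside glycolysis, of which 39 passed the filter. Of these 12 were called lower (30.8%) and 0 higher by limma, with a median log2 fold change of -0.27, and 28 of the 39 were below 0. Limma-voom after adjustment called 11 lower and 1 higher, against 733 and 849 of all 20077 genes in that fit. The 1 higher gene was *Angptl4*, with 37.7 and 25.9 in shNC and 41.0 and 42.9 in shNAT10. Limma did not call *Angptl4* (log2 fold change 0.42, adjusted p = 0.378, and 0.0345 with limma-voom). Where the mean FPKM reached 1, the largest falls were those of *Hmox1* (haem oxygenase), with 15.1 and 25.6 in shNC and 7.73 and 8.01 in shNAT10 (log2 fold change -1.31, adjusted p = 0.134), of *Ero1l*, an oxidase of the endoplasmic reticulum (-0.96, adjusted p = 0.146), of *Mxi1*, a MYC antagonist (-0.87, adjusted p = 0.186), and of *Narf* (-0.85, adjusted p = 0.121). Of the tested genes 27 were not called, among them *Fam162a*, a mitochondrial HIF target, with 21.9 and 32.0 in shNC and 21.8 and 24.7 in shNAT10. *Fam162a* and *Angptl4* were chosen after their values were seen. In 29 of the 39 genes shNC-2 was above shNC-1, by a median of 0.31. The count of genes called lower changed with the library left out.

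The glycolytic HIF targets ran beside these, with 9 of 21 tested genes called lower (42.9%), 0 higher by limma and by limma-voom after adjustment, and a median log2 fold change of -0.31. *Slc2a1*, the main glucose transporter gene, had 42.8 and 49.01 in shNC and 21.95 and 26.5 in shNAT10 (log2 fold change -0.92, adjusted p = 0.0846), and 19 of the 21 were higher in shNC-2 than in shNC-1. *Pfkfb4* (-0.95), *Eno2* (-0.91) and *Slc2a3* (-0.84) were the other large falls. Here too the count called lower changed with the library left out.

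Genes of the ATF4 response, which *Ddit4* is known to share, were counted in the same way. Of 22 tested genes 13 were called lower (59.1%) and 0 higher by limma, limma-voom called 10 lower and 0 higher after adjustment, and the median log2 fold change was -0.40. *Ddit3*, a stress transcription factor, had 39.5 and 48.4 in shNC and 16.9 and 17.6 in shNAT10 (log2 fold change -1.34, SE 0.13, adjusted p = 0.0489). *Cth* (-1.47), *Atf3* (-1.11) and *Ppp1r15a* (-1.09) were the other large falls, and the count called lower again changed with the library left out. Unlike the 10 hypoxia-inducible genes, of which all were higher in shNC-2 than in shNC-1, 8 of these 22 were, and the median difference within shNC was -0.09. The 2 counts were not tested against each other. *Sesn2*, *Stc2*, *Bnip3l*, *P4ha2*, *Plod1*, *Plod2*, *Rheb* and *Pgf* stand in more than 1 list, so the counts of the lists are not separate.

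**Figure D5:**
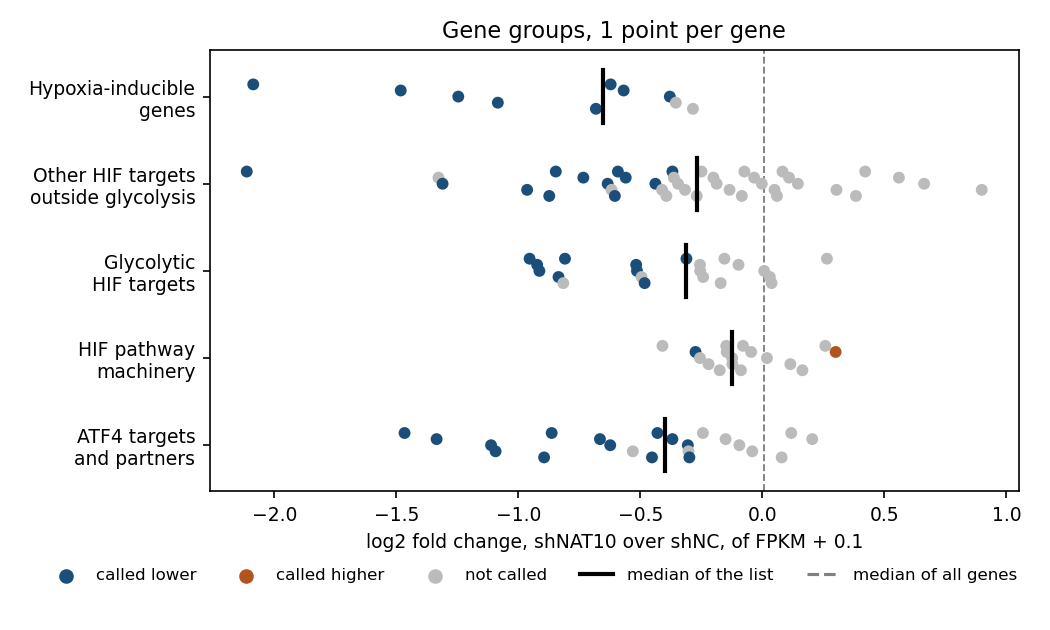
Log2 fold change of FPKM + 0.1, shNAT10 over shNC, for the tested genes of 5 lists, 1 point per gene, coloured by call, with the median of each list as a bar and that of all tested genes as a dashed line. The median of the hypoxia-inducible genes lies at -0.65, that of the HIF pathway at -0.12 and that of the ATF4 list at -0.40.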

How the data were processed

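The 4 Long RNA-seq libraries, 2 shNC and 2 shNAT10, were grouped by the sample labels. Per the paper's methods the libraries were rRNA-depleted, while the labels describe mRNA isolation. The submitters' processing notes name cutadapt, HISAT2, DESeq2 and the mm10 build, with versions, annotation and counting tool not given in the sources used here. The authors deposited FPKM for 53465 genes, plus columns of their own comparison (log2 fold change and p-values), which were not used. Columns of single libraries left out numbered 0.

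The 20116 genes whose mean FPKM reached 0.1 were compared on log2(FPKM + 0.1) with limma 3.58.1 in R 4.3.3 (lmFit, eBayes with trend, two-sided, no covariate), a scale that understates the change of low genes. A gene was called where its fold change exceeded 1.2 at a p, before adjustment, of 0.05 or less, the threshold of the study, with Benjamini-Hochberg adjusted p over all genes beside it. Intervals on log2 fold changes are 95% intervals of that fit. Gene identifiers were matched to GENCODE M21 (53360, 99.8%), whose build is that of the labels, for coordinates and exon lengths. Fragments were recovered from FPKM and exon length. Of values under 50 fragments, 96.0% to 96.6% were within 0.02 of a whole number in each library, and the floor was 3 fragments. Intervals on fragments cover counting error only, as PCR copies are not told apart. Promoters came from RefSeq (GRCm38.p6). Genes were named by rule: all 10 hypoxia-inducible genes, every gene of the HIF pathway, near relatives of the 10, and up to 4 called genes per direction and list with a mean FPKM of at least 1. A few others, such as *Mtor*, *Calcrl*, *Nrp1*, *Nrp2*, *Ackr3*, the VEGF receptors and cell type markers outside that rule, were chosen after their values were seen. The members and lists were chosen with earlier results of these data known. *Aldoa*, with more than 1 row, was left out. The fit was tested on simulated data. Python 3.11.15, numpy 2.4.6, pandas 2.3.3, scipy 1.17.1 and matplotlib 3.10.9 did the rest. Alternatives were pseudocounts of 1 and 0.01, no filter, a mean FPKM of at least 1, 3 other scalings, no trend, a replicate block, each library left out, and limma-voom on recovered fragments.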

Additional observations from a re-analysis of the deposited data

How the results depend on the processing

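The direction of all 10 hypoxia-inducible genes held under every alternative run, and the depth of *Adm*, 40 fragments in all, limits its fold change. Apart from leaving libraries out, 95 of 99 values for the 10 genes kept their side of the threshold. Without the trend *Vegfa* (-0.57), *Egln1* (-0.38) and *Egln3* (-0.68) missed it, so that 5 of the 10 were lower, against 6.04% of all tested genes in that fit. Limma-voom called *Pdk1* (-0.29). A filter at a mean FPKM of at least 1 removed *Adm*. With 1 library left out, log2 fold changes ran from -0.78 to -0.35 for *Vegfa*, -1.40 to -0.77 for *Bnip3*, -0.55 to -0.21 for *Egln1*, -0.92 to -0.44 for *Egln3*, -0.48 to -0.094 for *Pdk1*, -1.60 to -0.90 for *Ndrg1*, -2.55 to -1.62 for *Ankrd37*, -1.82 to -1.14 for *Adm*, -0.77 to -0.48 for *Ddit4* and -0.61 to -0.10 for *P4ha1*. The libraries share only a number, since the deviations of replicate 1 from the group means correlated at -0.0017 over 12138 genes. With the replicate number as a block 8 of the 10 were lower, against 7.59% of all tested genes in that fit. There the HIF pathway had 0 genes lower and the VEGF and adrenomedullin list had 1 higher, where 7.89% of all tested genes were called higher.

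For the other lists, no trend gave 0 higher and 0 lower in the HIF pathway, 7 other HIF targets lower, 7 ATF4 genes lower, 1 VEGF and adrenomedullin gene higher, 0 PDH genes higher and 1 collagen-modifying gene lower. That fit called 7.64% of all tested genes higher and 6.04% lower. At the same threshold, before adjustment, limma-voom gave 2 other HIF targets higher (1 after adjustment), 3 mTORC1 genes lower (0) and 3 VEGF and adrenomedullin genes higher (0), where it called 10.1% of all genes higher and 9.34% lower, and turned *Pdk2* to 0.010. A pseudocount of 1 left 0 HIF pathway genes lower, and the same protein-coding FPKM total left 0 mTORC1 genes lower. With 1 library left out, the counts ran from 0 to 1 higher and 0 to 3 lower in the HIF pathway, 0 to 2 higher and 4 to 16 lower in other HIF targets, 4 to 11 lower in glycolysis, 8 to 12 lower in the ATF4 list, 1 to 2 higher and 0 to 1 lower in mTORC1, 1 to 4 lower in mitophagy, 0 to 1 higher and 0 to 2 lower in the VEGF and adrenomedullin list, 0 to 1 higher and 0 to 1 lower in PDH, 0 to 3 lower in collagen modification, and 0 to 1 higher and 0 to 1 lower in the NDRG family. The log2 fold change then changed sign for *Egln2* (-0.0037 to 0.23), *Hif1an* (-0.031 to 0.067), *Cul2* (-0.26 to 0.16), *Elob* (-0.18 to 0.025), *Siah2* (-0.30 to 0.0030), *Rack1* (-0.25 to 0.0052), *Pdk2* (-0.61 to 0.58), *P4ha2* (-0.79 to 0.0070), *Ndrg3* (-0.38 to 0.015), *Adm2* (-1.72 to 0.064) and *Vegfd* (-0.92 to 0.36). The cause of these changes was not tested. In each fit with 1 library left out, a lone library stood for its group. List counts from those fits were not set against all tested genes, so they cannot show an excess of calls in either direction.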
